A study of Mus musculus with 6 samples.

Results

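The genes for 3 SLIT ligands (Slit1, Slit2 and Slit3) and for the receptors Robo1 and Robo2 were read in the proximal hindlimb bud of mouse embryos with and without the transcription factor LMX1B. All probe sets (the groups of short probes that read 1 transcript region on the array) whose annotation gave exactly 1 symbol, equal to 1 of these 5 genes, were taken, 10 of 45037 analysed, for 5 of 18193 genes. Slit2 and Robo1 had 3 probe sets each, Slit1 had 2, and Slit3 and Robo2 had 1 each. The groups were 3 pools of Lmx1b -/- embryos and 3 pools of wild-type embryos, all 129Sv and all at E11.5 (days of embryonic development), with 1 array per pool. Each pool mixed RNA from the hindlimb buds of 3 embryos, 6 buds in all, cut to the proximal 500 µm, so variation between single embryos cannot be seen. The study asked which genes LMX1B controls in this tissue.

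SLIT proteins are large secreted ligands that bind heparan sulphate and the immunoglobulin domains of ROBO receptors, single-pass membrane proteins. Binding usually repels growing axons and migrating cells, through adaptor and GTPase-activating proteins on the receptor's cytoplasmic tail. In the embryo the pathway is best known for keeping commissural axons from recrossing the midline, and it also guides and bundles motor and sensory axons on their way to targets such as the limb. LMX1B, a LIM homeodomain protein, sets dorsal identity in limb mesenchyme, including the choice that motor axons make between dorsal and ventral muscle.

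The promoters of Slit2 and Robo2, the genes whose probe sets read lowest in Lmx1b -/- relative to wild-type pools, are shown with 250 bases before and 50 after the annotated start, from RefSeq on GRCm38.p6. Capitals mark TAAT, the core that homeodomain proteins bind, and TATAAA, the core of the TATA box, each searched on both strands.
Slit2, chr5:47982905-47983204, + strand: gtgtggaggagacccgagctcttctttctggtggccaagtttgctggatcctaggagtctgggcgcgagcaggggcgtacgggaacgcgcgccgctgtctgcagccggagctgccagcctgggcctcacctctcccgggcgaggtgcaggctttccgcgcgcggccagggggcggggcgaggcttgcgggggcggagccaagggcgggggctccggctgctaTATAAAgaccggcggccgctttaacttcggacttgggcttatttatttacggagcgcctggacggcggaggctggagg
Robo2, chr16:75447244-75447543, - strand: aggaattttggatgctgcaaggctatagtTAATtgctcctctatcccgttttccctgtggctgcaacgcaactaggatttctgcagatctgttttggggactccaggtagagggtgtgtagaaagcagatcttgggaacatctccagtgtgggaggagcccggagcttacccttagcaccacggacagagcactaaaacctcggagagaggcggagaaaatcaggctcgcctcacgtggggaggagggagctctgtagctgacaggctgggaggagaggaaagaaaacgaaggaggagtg
The Slit2 window held no TAAT, and 1 TATAAA that begins at base -28 from the start. The Robo2 window held 1 TAAT at base -221 and no TATAAA. Of 32851 RefSeq windows of the same length, 58% held TAAT and 13.6% held TATAAA. The longer homeodomain sequence TAATTA, which overlaps TAAT, occurred in 5.29% of all windows and in 0 windows of Slit2, Slit3, Robo1 and Robo2. Robo2 had 3 annotated starts, and which of them the array reads is not known here. A TAAT was present in 2 of these 3 windows, in the single Robo1 window and not in that of Slit3.

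Slit2 and Slit3 also enclose the 2 genes for the microRNA miR-218, on the strand of the host gene's promoter. In both, the mature strand is the same, shown because its genes lie within 2 of the genes read here. Capitals mark the seed, bases 2 to 8.
mmu-miR-218-5p, chr5:48223966-48223986 and chr11:35616840-35616860, + strand: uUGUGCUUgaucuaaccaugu
Neither microRNA gene had a named probe set on the array, so its level was not measured.

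Values are log2 RMA values, the authors' background-corrected and normalized summaries, on which 1 unit is a doubling. The lower quartile of an array lay at 3.31 to 3.36 and its median at 4.96 to 4.99. Levels of different probe sets are not comparable, since each has its own probes. Of the 2 probe sets of the mutated gene, the brighter averaged 4.47 ± 0.21 in Lmx1b -/- pools and 7.93 ± 0.31 in wild-type pools (SD, n = 3 each; limma adjusted p = 0.000544). The dimmer averaged 3.92 ± 0.11 in Lmx1b -/- pools and 3.93 ± 0.06 in wild-type pools and overlapped between the groups (limma adjusted p = 0.986). The stretch of Lmx1b that each one detects is not known here, so the dimmer checks nothing about the labels. Limb mesenchyme markers were bright in every pool (8 of 8 above the array median), whereas 6 of 8 neuron and spinal cord markers were below it in their mean over the pools. Of that list Olig2, Sox2, Mnx1 and Neurog2 read between 2.06 and 3.50, while Stmn2 read 4.88 to 5.33 and Isl1, a LIM homeodomain gene of motor neurons that is also active in early hindlimb mesenchyme, 8.09 to 8.45. Xist, transcribed from the inactive X chromosome of female cells, read 9.66, 9.16 and 10.79 in Lmx1b -/- pools 1 to 3, and 4.68, 9.88 and 4.72 in wild-type pools 1 to 3, so the pools differed in their share of female tissue along with genotype. In 1 setting the Xist level was added to the fit, and in another wild-type pool 2 alone was set against the Lmx1b -/- pools. Both rest largely on wild-type pool 2, the only wild-type pool with high Xist, so they are not independent checks. Neither can tell the share of female tissue from other traits of that pool.

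In the fit over all probe sets, 0 of the 10 Slit and Robo probe sets passed the threshold (limma, Benjamini-Hochberg adjusted p under 0.05), against 0.0844% of all probe sets, 0.0622% lower and 0.0222% higher in Lmx1b -/- pools. At an unadjusted p under 0.05 there were 4 of 10, the 3 of Slit2 and the 1 of Robo2, all lower in Lmx1b -/- pools, against 9.41% of all probe sets in either direction and 4.2% lower. In 3 of 10 the Lmx1b -/- values all lay below the wild-type values, against 5.78% of all probe sets, and in 0 of 10 they all lay above, against 8.62%, or 14.4% in either direction. The 10 probe sets come from 5 genes, so their readings are not independent. The median change of the 10 was 0.02, against 0.01 over all probe sets.

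Slit2, a ligand made by mesenchyme and by the ventral midline of the neural tube, read lower in Lmx1b -/- pools with each of its probe sets. The brightest, 1424659_at, read 7.16, 7.08 and 7.36 in Lmx1b -/- pools 1 to 3, and 7.42, 7.68 and 7.55 in wild-type pools 1 to 3. The groups did not overlap, but Lmx1b -/- pool 3 and wild-type pool 1 lay close together. The means were 7.20 ± 0.15 in Lmx1b -/- pools and 7.55 ± 0.13 in wild-type pools (SD, n = 3 each), a change of -0.35, or 1.28-fold lower (SE 0.10; limma adjusted p = 0.354). The 95% interval of that change, without adjustment for the number of probe sets, ran from -0.58 to -0.12.

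The second Slit2 probe set, 1458140_at, read 6.34, 6.27 and 6.69 in Lmx1b -/- pools, and 7.07, 7.00 and 6.61 in wild-type pools. Here the groups overlapped, because the highest Lmx1b -/- pool exceeded the lowest wild-type pool. The change was -0.46, or 1.38-fold lower (SE 0.15; interval -0.81 to -0.12; limma adjusted p = 0.413). The dimmest Slit2 probe set, 1451430_at, read 3.33, 3.25 and 3.45 in Lmx1b -/- pools, and 4.04, 4.15 and 3.88 in wild-type pools. All 3 Lmx1b -/- values sat at about the lower quartile of the array and all 3 wild-type values stood above it. Its change of -0.68 was the largest of the 10 (1.60-fold lower, SE 0.09; interval -0.89 to -0.47; limma adjusted p = 0.0648), the smallest adjusted p among them and still short of the threshold.

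The dimmest Slit2 probe set was called lower under 4 of its 16 alternatives: with an intensity trend in the variance (limma adjusted p = 0.0419), with array weights (0.0369), with quantile normalization repeated (0.0489) and at a threshold of 0.1. Of all 45037 probe sets these settings called 94, 69, 37 and 99 in that order, against 38 in the main fit. Over all its alternatives the adjusted p of the dimmest Slit2 probe set ran from 0.0369 to 0.272, and its change from -0.83 to -0.62. A value this near the bottom of the range carries little signal over background, and its fold is inexact. The annotation gives this probe set and the brightest the same source sequence, so they are not independent readings. Of 2366 genes with 3 probe sets, 437 (18.5%) had all 3 changes below 0, as Slit2 did. In every Slit2 probe set Lmx1b -/- pool 3 was the highest of its group and Lmx1b -/- pool 2 the lowest. The order of the wild-type pools differed between probe sets.

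**Figure D1:**
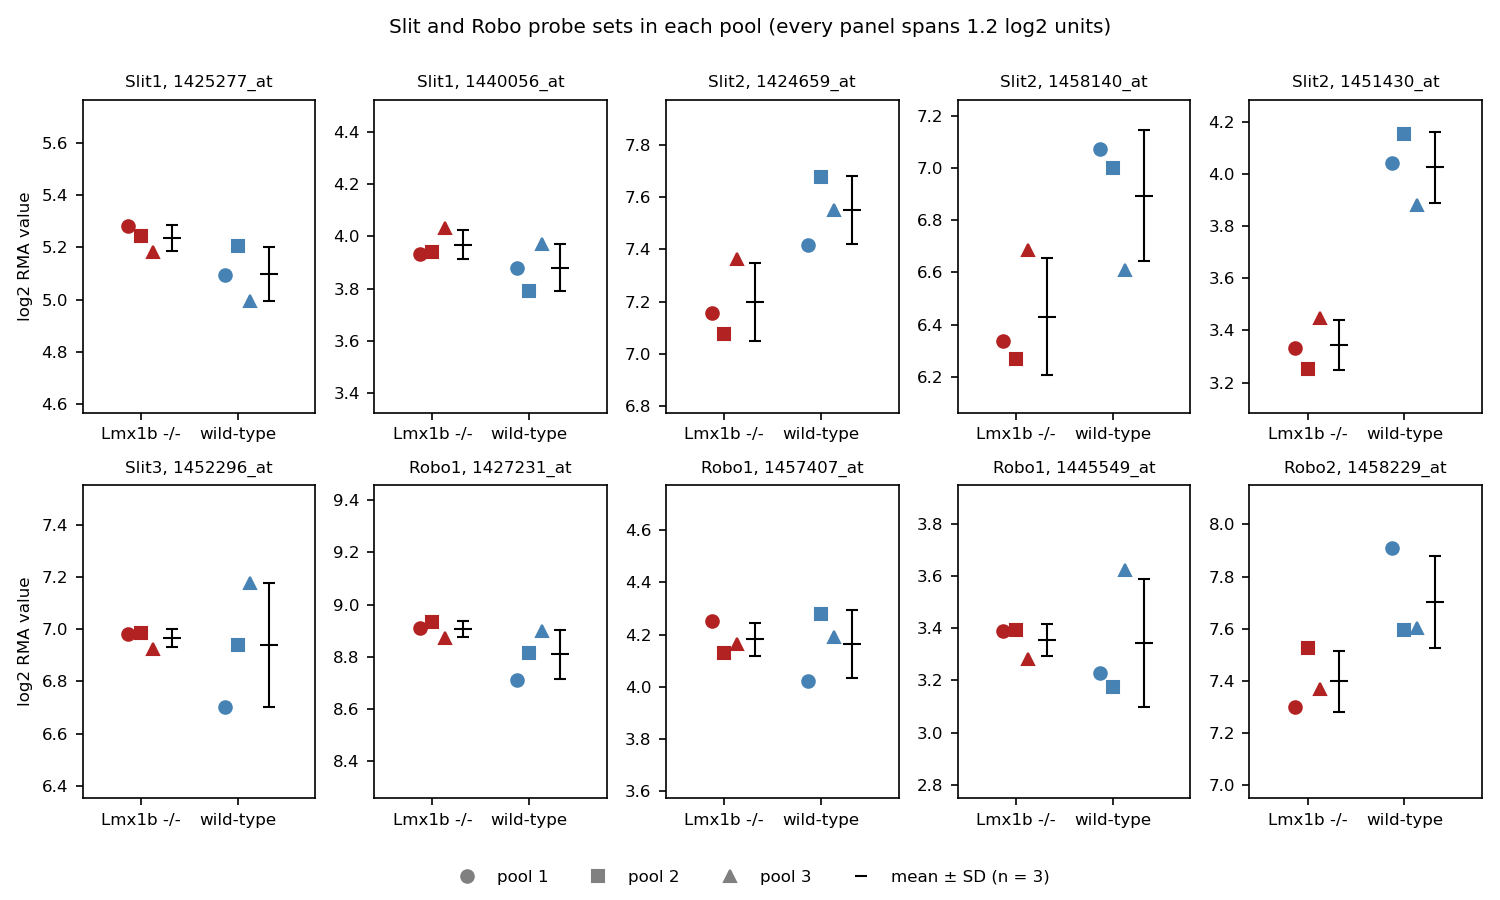
Log2 RMA value of each Slit and Robo probe set in each pool, with Lmx1b -/- pools in red and wild-type pools in blue. Marker shapes give the pool number and bars the mean ± SD (n = 3). The groups separate in 1424659_at and 1451430_at of Slit2 and in the Robo2 probe set, while the wild-type pools of Slit3 spread from 6.70 to 7.18 around the Lmx1b -/- pools.

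Slit3, a ligand expressed in mesenchyme and muscle, had 1 probe set, 1452296_at. It read 6.98, 6.99 and 6.93 in Lmx1b -/- pools, and 6.70, 6.94 and 7.18 in wild-type pools. The Lmx1b -/- pools lay within 0.06 of each other and inside the range of the wild-type pools. The change was 0.03 (SE 0.11; interval -0.24 to 0.29; limma adjusted p = 0.964), and -0.09 without wild-type pool 1. Wild-type pool 1, lowest for Slit3, also had the lowest mean over 8 limb muscle markers, 6.34. Lmx1b -/- pools were at 6.82 to 6.97 and the other wild-type pools at 6.71 to 6.81. This was not particular to muscle. Wild-type pool 1 was also lowest in the Schwann cell (4.67), neuron (4.10), surface ectoderm (6.81) and macrophage (4.86) lists. Wild-type pool 3, highest for Slit3, had the highest mean over 8 hypoxia and glycolysis genes, 9.37. Lmx1b -/- pools were at 8.26 to 8.49 and the other wild-type pools at 8.36 to 8.51. Wild-type pool 3 was also highest in the limb mesenchyme (10.18), endothelial (7.14), cartilage (7.31) and neuron (4.29) lists. The part of any of these in the spread of Slit3 was not tested. All 8 hypoxia and glycolysis genes averaged lower in Lmx1b -/- pools, as Slit2 and Robo2 did, with a median change of -0.35, 0 of 8 past the threshold and overlap between the groups in the list mean. The part of this in the Slit2 and Robo2 values was not tested, and without wild-type pool 3 Slit2 was at -0.35 and Robo2 at -0.35.

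Slit1, a ligand known mainly from the nervous system, was close to the array median or below it. Its brighter probe set, 1425277_at, read 5.28, 5.24 and 5.18 in Lmx1b -/- pools, and 5.09, 5.20 and 5.00 in wild-type pools. Wild-type pool 2 exceeded Lmx1b -/- pool 3, so the groups overlapped, and the change was 0.14 (SE 0.08; interval -0.04 to 0.31; limma adjusted p = 0.605). The Slit1 change was smaller, at 0.06 once the Xist level was a term of the fit and at 0.03 against wild-type pool 2 alone. The other probe set, 1440056_at, read 3.93 to 4.03 in Lmx1b -/- pools and 3.79 to 3.97 in wild-type pools, a change of 0.09 (adjusted p = 0.742). At this level the arrays do not show whether Slit1 was expressed in the tissue.

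Between ligands, the difference Slit2 minus Slit3 within a pool was 0.38 lower in Lmx1b -/- than in wild-type pools (exact two-sided permutation test over pools, p = 0.2). Slit2 minus Slit1 was 0.49 lower (exact permutation p = 0.1). With 3 pools against 3 this test cannot go below 0.1, so neither difference between ligands could pass.

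Robo2, a SLIT receptor on commissural, sensory and motor neurons, read lower in Lmx1b -/- pools with its single probe set, 1458229_at. It read 7.30, 7.53 and 7.37 in Lmx1b -/- pools 1 to 3, and 7.91, 7.60 and 7.60 in wild-type pools 1 to 3. The groups did not overlap, but the highest Lmx1b -/- pool was only 0.07 below the lowest wild-type pool, and wild-type pool 1 stood above the rest. The means were 7.40 ± 0.12 in Lmx1b -/- pools and 7.70 ± 0.18 in wild-type pools (SD, n = 3 each), a change of -0.30, or 1.23-fold lower (SE 0.10; interval -0.55 to -0.06; limma adjusted p = 0.442). The change was -0.20 without wild-type pool 1 and -0.19 once the Xist level was a term of the fit. In wild-type pool 2 alone, the wild-type pool with high Xist, against the 3 Lmx1b -/- pools it was -0.20, whereas Slit2 was at -0.48 there and at -0.52 with Xist in the fit (adjusted p between 0.515 and 0.912 for these 4 values). Of the 2 wild-type pools with low Xist no such value can be had, since no Lmx1b -/- pool was low.

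Robo1, a SLIT receptor of neurons that is also made by mesenchyme and endothelium, was nearly level across the pools. Its brightest probe set, 1427231_at, read 8.91, 8.93 and 8.87 in Lmx1b -/- pools, and 8.71, 8.82 and 8.90 in wild-type pools. The Lmx1b -/- pools overlapped with wild-type pool 3, and the change was 0.10 (SE 0.07; interval -0.07 to 0.26; limma adjusted p = 0.709). It was 0.10 with Xist in the fit and 0.09 against wild-type pool 2 alone, settings under which Slit3 was at 0.03 and 0.02. The change read for Robo2 lies outside the interval of Robo1, but the intervals of the 2 genes just overlap. The difference between the receptors was not tested. The remaining Robo1 probe sets were dim, at 4.13 to 4.25 and 3.28 to 3.39 in Lmx1b -/- pools and 4.02 to 4.28 and 3.17 to 3.62 in wild-type pools, with changes of 0.02 and 0.01. Robo1 and Robo2 both lie on chromosome 16, and the genes Slit1, Slit2 and Slit3 on chromosomes 19, 5 and 11.

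**Figure D2:**
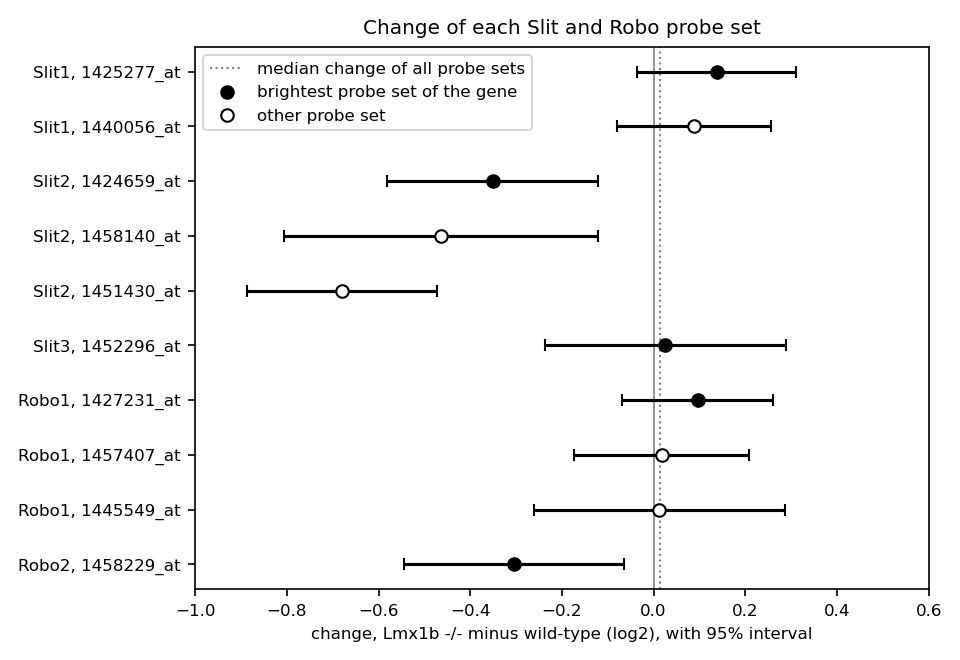
Change of each Slit and Robo probe set, Lmx1b -/- minus wild-type, in log2 units with its 95% interval, for 3 pools a side. Filled points are the brightest probe set of a gene and the dotted line is the median change of all probe sets, 0.01. The intervals of the 3 Slit2 probe sets and of Robo2 lie below 0, and the other 6 span it.

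The brightest Slit2 probe set and the Robo2 probe set were highest in different wild-type pools. The second Slit2 probe set was highest in wild-type pool 1, as Robo2 was. Within a pool, brightest Slit2 minus Robo2 changed by -0.05 between groups (exact two-sided permutation test over pools, p = 0.8). This follows from the similar changes already given for the 2 genes, so it is no further evidence that they fall together. Slit2 minus Robo1 changed by -0.45 (exact permutation p = 0.1, the lowest this test can give). Among 10994 other genes at or above the array median, the 4 whose centred values lay nearest to those of Slit2 over the 6 pools were Senp7 (root-mean-square difference 0.05 log2 units), Plagl1 (0.06), Tmem121 (0.07) and Dennd10 (0.07). For Robo2 they were Hnrnph2 (0.04), Ufl1 (0.04), Zmat1 (0.05) and Arhgap12 (0.05). The profiles were highest in wild-type pool 2 for the brightest Slit2 probe set and in wild-type pool 1 for Robo2. A peak shared with the nearest genes largely follows from how those genes were chosen. No gene of either set passed the threshold itself, with gene-level adjusted p from 0.238 to 0.517 (limma, 1 probe set per gene). With 6 pools and so many genes, close matches are common, and these are given as a description.

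**Figure D3:**
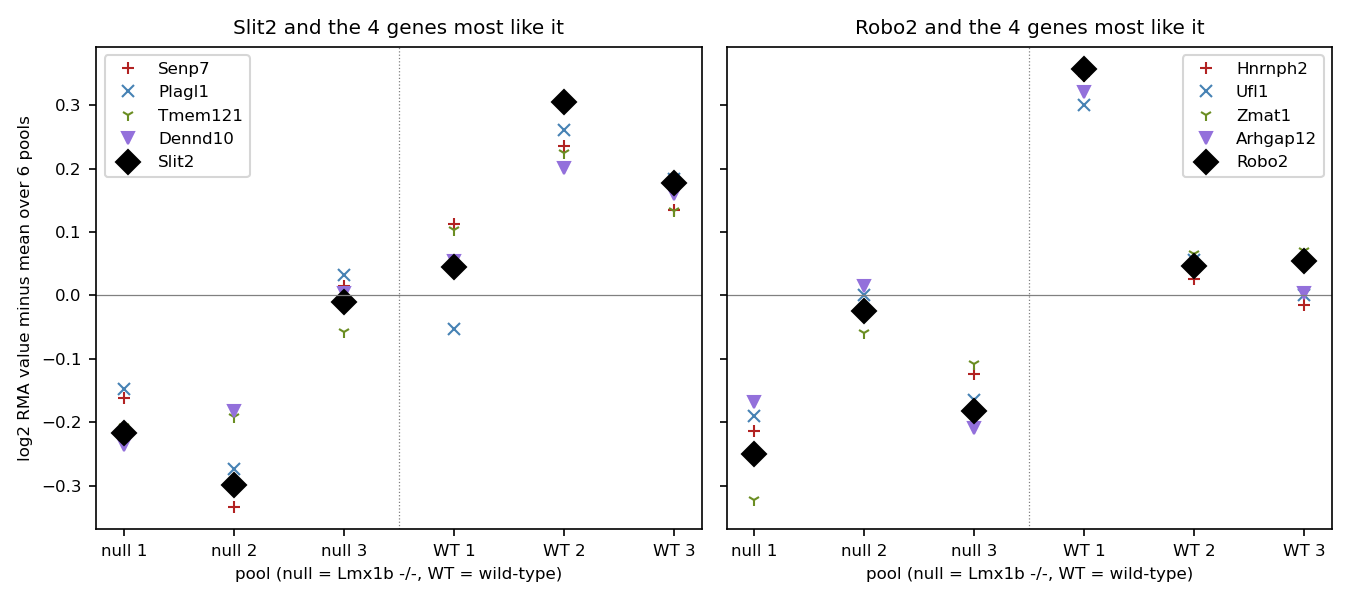
Log2 RMA value minus the gene's own mean over the 6 pools, for Slit2 (left, black diamonds) and Robo2 (right, black diamonds) with the 4 genes nearest to each. The Slit2 set peaks in wild-type pool 2 and the Robo2 set in wild-type pool 1, as the choice by nearness makes likely. Each gene is shown by its brightest probe set.

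Of 41 other genes of the pathway, 39 were analysed here at 1 probe set per gene, and Ndst1 and Pak1 were not. With limma, 0 of 39 passed the threshold over all genes, against 0.104%, and 4 had an unadjusted p under 0.05, against 9.8%. There were 22 higher and 17 lower in Lmx1b -/- pools, and the median change was 0.02, as over all genes. The groups did not overlap in 6 of 39, against 14.6% of all genes. Counts for the partner genes were therefore near those of the whole array.

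Among other receptors and binding partners (8 genes, 0 past the threshold), Robo4, the endothelial member of the family, read 6.10, 5.76 and 5.76 in Lmx1b -/- pools, and 6.02, 5.97 and 6.07 in wild-type pools. Lmx1b -/- pool 1 was above every wild-type pool and the others below, with a change of -0.14 (limma adjusted p = 0.677). All 8 endothelial markers read lower in Lmx1b -/- pools, with 0 past the threshold and a mean over the list of 6.82 to 6.86 in Lmx1b -/- pools against 6.95 to 7.14 in wild-type pools. Its part in the Robo4 and Robo2 values was not tested, and in whole tissue fewer cells of a type and less RNA per cell cannot be told apart. Robo3, a divergent receptor that lets commissural axons cross the midline, was dim in both groups, at 4.21 ± 0.12 in Lmx1b -/- pools and 4.09 ± 0.10 in wild-type pools (SD, n = 3 each). Flrt3, a membrane protein that binds ROBO1, read 8.38 to 8.43 in Lmx1b -/- pools and 8.50 to 8.66 in wild-type pools, a change of -0.18 (limma adjusted p = 0.429). In its other probe set the groups overlapped, with a change of -0.15 (limma adjusted p = 0.606).

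Among heparan sulphate proteoglycans and their enzymes (9 analysed, 0 past the threshold), Sdc2 differed most. It encodes syndecan-2, a membrane proteoglycan whose chains can bind SLIT. Its brightest probe set read 6.74, 6.66 and 6.66 in Lmx1b -/- pools, and 7.09, 7.82 and 7.39 in wild-type pools. The Lmx1b -/- pools were tightly grouped below all wild-type pools, with a change of -0.75, or 1.68-fold lower (SE 0.16; interval -1.12 to -0.38; limma adjusted p = 0.218). The other 3 Sdc2 probe sets had changes of -0.26, -0.56 and -0.12, and the groups did not overlap in any of the 4. Against wild-type pool 2 alone, its highest pool, the change was -1.14 (adjusted p = 0.0337). That p takes its spread from the Lmx1b -/- pools, whose SD for Sdc2 was 0.04 against 0.37 among wild-type pools, so it is not read as a call. The other 8 genes of the group had changes from -0.06 to 0.09.

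Of the genes below ROBO (18 analysed, 0 past the threshold), Cap1 had the largest change. It encodes a cyclase-associated protein that acts on actin. Cap1 read 9.50, 8.53 and 9.19 in Lmx1b -/- pools, and 8.19, 8.22 and 8.20 in wild-type pools. Every Lmx1b -/- pool was above the wild-type pools, which nearly coincided, but the Lmx1b -/- pools spread by almost 1 unit, and the change of 0.87 did not pass (SE 0.21; limma adjusted p = 0.266). Its other probe set gave 0.88. Without Lmx1b -/- pool 2, the lowest of its group, the change was 1.14 and passed (limma adjusted p = 0.0213). Leaving out the pool nearest to the wild-type pools is bound to enlarge the change. The SD over all pools was 0.49 in Lmx1b -/- and 0.02 in wild-type pools, so this is not read as a call. The adaptor gene Nck1 was at -0.13 and its paralogue Nck2 at 0.13 (adjusted p = 0.57 and 0.522), both without overlap between groups. Their other probe sets all overlapped, at -0.09 and 0.10 for Nck1 and at 0.004 and -0.01 for Nck2. The genes for the GTPase-activating proteins that bind the ROBO tail, Srgap1, Srgap2 and Srgap3, had changes of -0.06, 0.03 and 0.02. Of the 4 turnover and cleavage genes (0 past the threshold), Usp33, for a deubiquitinase that binds ROBO1, read 7.54, 7.73 and 7.29 in Lmx1b -/- pools, and 7.91, 7.82 and 7.74 in wild-type pools. The groups nearly touched, and the change was -0.30 (limma adjusted p = 0.451).

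**Figure D4:**
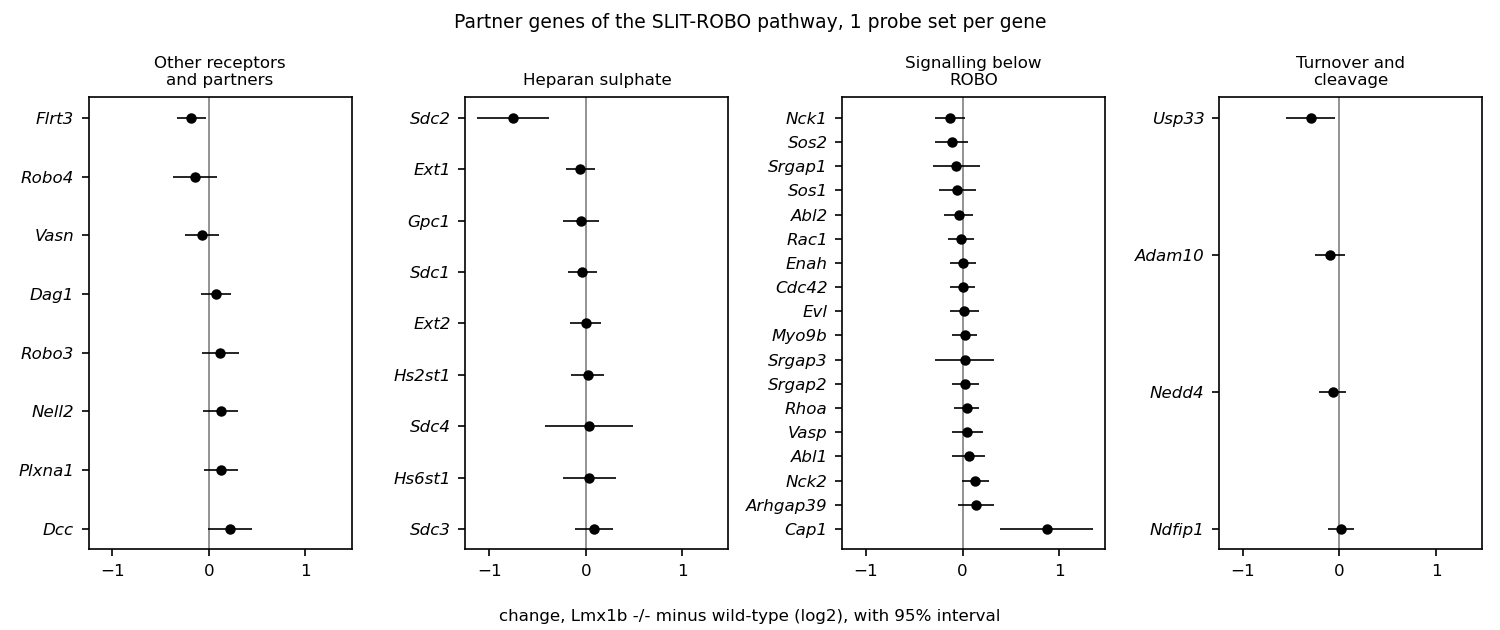
Change of 39 partner genes, Lmx1b -/- minus wild-type, in log2 units with 95% intervals, at 1 probe set per gene and 3 pools a side, in 4 groups by role. Sdc2 at -0.75 and Cap1 at 0.87 stand apart from the others, which lie between -0.30 and 0.22.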

How the data were processed

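Per the submitters' processing notes, the log2 values that the authors deposited, 1 for each probe set on each array, came from RMA, which corrects background, normalizes arrays to a common distribution and summarises probes. The RMA version was not given, and the base of the logarithm was taken from the values. A change shared by most transcripts would be hidden by that normalization. From 45101 probe sets, 64 controls were left out. In R 4.3.3, limma 3.58.1 (lmFit and eBayes, no trend, not robust) was fitted to all 45037, with two-sided p-values adjusted by the Benjamini-Hochberg method and a threshold of 0.05. Changes are Lmx1b -/- minus wild-type. Gene-level values used the probe set with the highest mean, for 18193 genes. Of the probe sets, 34945 had 1 symbol, 932 several and 9160 none. The script was tested on simulated data. The number of arrays limited the precision (median SE 0.0843).

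Members, gene lists and tests were chosen with earlier results of these data known. All member probe sets and those of Lmx1b were named. Partner genes were named if past the threshold, then by absolute change among those whose groups did not overlap, up to 8, with Robo3 and Robo4 in any case; Srgap1, Srgap2 and Srgap3 were added after their values were seen. Nearest profiles were sought for members whose brightest probe set spanned at least 0.5 units. Marker lists covered limb mesenchyme, muscle, endothelium, Schwann cells, neurons, ectoderm, cartilage, macrophages, erythroid cells and hypoxia. Alternatives changed the variance model, array weights, filters, scaling, threshold, pool-number block, Xist term and pools. Deviations from the group means correlated at -0.239, -0.0878 and -0.168 between pools of the same number, and the pool number was not treated as a pairing.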

Additional observations from a re-analysis of the deposited data

How the results depend on the processing

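Of the 10 Slit and Robo probe sets, 0 passed with limma in the fit of all 6 pools, and 1, the dimmest of Slit2, passed with an intensity trend, array weights, repeated quantile normalization or a threshold of 0.1; leaving out 1 pool gave 0 each time. Of the partner genes, 0 to 1 passed with 1 pool left out (Cap1 without Lmx1b -/- pool 2) and 1 (Sdc2) with wild-type pool 2 alone against the Lmx1b -/- pools, a setting chosen after seeing the data in which the spread of wild-type pools is assumed to equal that of Lmx1b -/- pools, which for Sdc2 it did not. With 1 pool left out, changes ran from -0.43 to -0.29 for the brightest Slit2 probe set, -0.37 to -0.20 for Robo2, -0.09 to 0.14 for Slit3, 0.09 to 0.19 for Slit1, 0.05 to 0.14 for Robo1 and -3.62 to -3.33 for Lmx1b. Of these genes only Slit3 turned its sign, with a Slit3 change of -0.0933 without wild-type pool 1; it passed no threshold either way. The brightest probe sets of Slit1, Slit2, Robo1, Robo2 and Lmx1b kept direction and call in each of their 18 alternatives. The second Slit2 probe set passed under none of its alternatives, with changes from -0.63 to -0.37. With the pool number as a replicate block, Slit2 had an adjusted p of 0.577 and Robo2 of 0.648, and no call changed. Over all probe sets the alternatives called 10 to 99, against 38.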

Other observations

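The remaining marker lists are given as means over a list. Cartilage markers read 6.81 to 6.88 in Lmx1b -/- pools against 6.99 to 7.31 in wild-type pools. Of these, 1 of 8, Cnmd, was past the threshold, against 0.104% of all genes. Cnmd (-1.76) and Hapln1 (-0.76) had the largest changes of this list and weigh most in its mean. Of the 8 genes 6 were lower and 2 higher, with a median change of -0.09. Limb muscle markers read 6.82 to 6.97 in Lmx1b -/- pools against 6.34 to 6.81 in wild-type pools, with 0 of 8 past it. Limb mesenchyme markers read 10.06 to 10.11 in Lmx1b -/- pools against 10.12 to 10.18 in wild-type pools. In these 3 lists and in the endothelial list the groups did not overlap. They nearly touched for limb mesenchyme (10.11 against 10.12) and limb muscle (6.82 against 6.81). Of all single genes, 14.6% had no overlap, and the share for list means was not worked out. Means of the Schwann cell, neuron, surface ectoderm, macrophage and erythroid lists overlapped between groups, at 4.84 to 5.11, 4.19 to 4.22, 6.95 to 7.11, 4.99 to 5.08 and 8.58 to 8.79 in Lmx1b -/- pools, against 4.67 to 5.16, 4.10 to 4.29, 6.81 to 7.08, 4.86 to 5.11 and 8.61 to 8.69 in wild-type pools. Their part in the Slit2 and Robo2 values was not tested.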
